A study of Mus musculus with 32 samples.

Results

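Fatty acid oxidation and PPAR alpha target genes were taken as a named list of 39 genes of mitochondrial and peroxisomal β-oxidation, ketone body metabolism and PPAR alpha targets. All 39 were found by symbol among the 21880 gene rows of a liver RNA-seq table. The libraries were made from mouse liver to compare loss of mitochondrial fission, of fusion and of both. Floxed mice on a mixed C57BL/6 and 129 background were crossed for 6 generations with Alb-Cre mice of strain C57BL/6J. In Alb-Cre mice the albumin promoter drives Cre in hepatocytes, and which other liver cells kept the floxed genes was not examined here. L-Dnm1l–KO mice lack Dnm1l, which encodes the fission protein DRP1. DKO mice lack the mitofusins Mfn1 and Mfn2, which fuse mitochondrial outer membranes, and TKO mice lack all of these genes. The WT libraries are labelled Drp1_WT, and the paper describes matched WT littermates for L-Dnm1l–KO mice. The labels do not say whether the WT mice were littermates of the DKO or TKO mice. Each of these genotypes had 4 libraries at 2 months (2M) and 4 at 6 months (6M) of age, 32 libraries in 8 groups, and whether animals were pooled is not given in the sources used here.

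β-Oxidation shortens fatty acids by repeated rounds of dehydrogenation, hydration, a further dehydrogenation and thiolytic cleavage, in mitochondria for most long and medium chains and in peroxisomes for very long and branched ones. In the liver the acetyl-CoA made in this way feeds ketone body synthesis during fasting. PPAR alpha is the nuclear receptor that binds fatty acids and, paired with RXR, turns on many genes of uptake, oxidation and ω-hydroxylation in hepatocytes.

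The value used for each gene was the authors' mean normalized count, taken to cover all 32 labelled libraries and here termed the level. A length-scaled level is that mean per 1000 bases of the gene's merged exons in the GENCODE annotation of GRCm38, and the members were ranked against each other on that scale. These means carry no spread between libraries, so no level below has an error, and differences between genotypes or ages were not analysed here. In bulk liver, fewer cells of a type and less RNA per cell cannot be told apart.

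The table held the hepatocyte markers at high levels, given here, like all marker values, as means not scaled to length. Of the 10 listed, 9 were in the table, with means from 100 to 4958, the highest being Alb, and Tf was not analysed here. The 5 macrophage markers ran from 0.586 to 121, with Csf1r as the highest and Clec4f next at 3.82. Markers of stellate cells, endothelium, cholangiocytes, adipocytes and skeletal muscle did not exceed a mean of 4.42. The adipocyte list rests on 2 of its 4 genes and the muscle list on 1 of its 3, since Plin1, Lep, Acta1 and Myh4 were not analysed here. Dnm1l had a mean over the mixed genotypes of 8.70, Mfn1 of 4.64 and Mfn2 of 9.04. The library kit kept the strand of the RNA, and the strand setting used for counting is not given in the sources used here. Among the protein-coding rows of the mitochondrial genome, mt-Nd6, the single one coded on the opposite strand to the other 12, had a length-scaled level of 58781, which was 16.2 times that of the highest of the other 12. Transcripts of mt-Nd6 are known to be scarce beside those of the other mitochondrial genes. A level below is therefore what the table lists for a gene and cannot be read as the abundance of that gene's own mRNA, and the part of the strand setting was not tested.

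The rows of this pathway were mostly above the middle of the table and rarely at its top. All 39 had a level of at least 1, against 56.8% of all rows. A level of at least 10 was reached by 25 members, 64.1%, against 20.2% of all rows. A level of at least 100 was reached by 2 members, 5.13%, which was near the 4.63% of all rows. The median level of the members was 21.6 and that of all rows 1.52. On the length-scaled measure the members' median was 4.53, against 0.507 over 14527 protein-coding rows, and 37 of 39 members lay above that coding median. The members spread widely around their own middle, from a length-scaled level of 0.376 for Hadhb to 745 for Fabp1. Together these 39 of the 21880 rows held 0.148% of the sum of all means. That sum was 900450, of which the row of mt-Nd6 alone made up 30507. These are counts over rows and not tests.

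**Figure D1:**
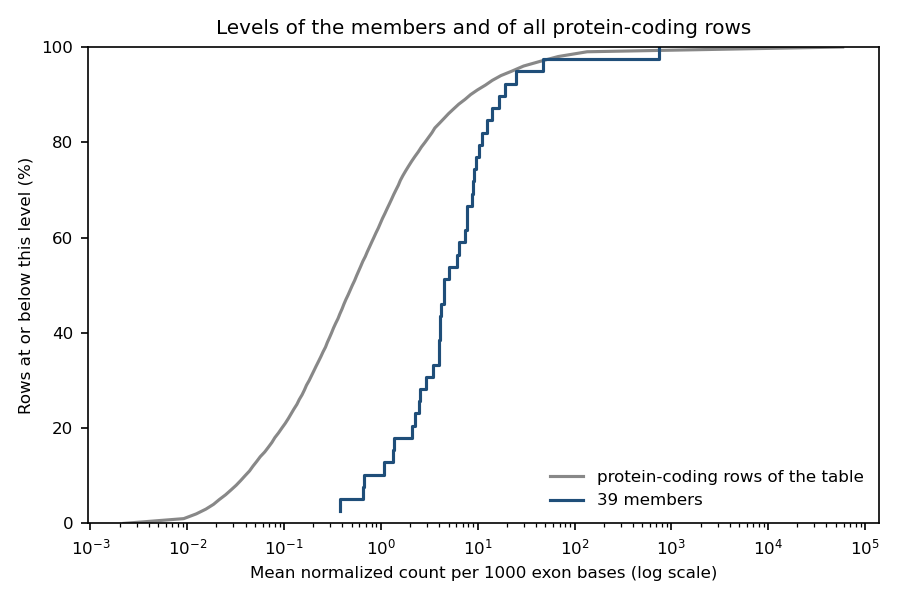
Cumulative share of rows (vertical axis, percent) at or below a given mean normalized count per 1000 exon bases (horizontal axis, log scale), for the 39 members (blue steps) and for all 14527 protein-coding rows (grey line). The members' curve lies to the right over most of its length, with medians of 4.53 and 0.507, and a single member, Fabp1 at 745, forms the long upper step.

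Ppara, the receptor itself, had a level of 9.68 and a length-scaled level of 2.52, below the members' median of 4.53 on that scale.

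The genes of uptake, binding, activation and import were led by Fabp1, which encodes the liver fatty acid binding protein of the hepatocyte cytosol. Fabp1 had a level of 412, rank 303 of all rows, and a length-scaled level of 745, rank 113. It lies at chr6:71199827-71205023 on the plus strand, its 553 exon bases overlap no gene of the opposite strand, and none of its 75-base words occurs in another gene. Acsl1, which joins long-chain fatty acids to coenzyme A, had a level of 101 and a length-scaled level of 9.67. Cpt1a, the carnitine palmitoyltransferase of the outer membrane and the regulated gate of mitochondrial import, had a length-scaled level of 6.36, and Cpt2, its partner on the inner membrane, of 4.01. The last of these genes, Cd36, a fatty acid transporter of the plasma membrane, was the lowest at 1.37 on the same scale. The group thus ran from the highest member of the whole list to one below its median.

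The acyl-CoA dehydrogenases open each round of the mitochondrial spiral and differ in the chain length they accept. Their length-scaled levels were 11.1 for Acadvl (very long chains), 10.3 for Acadl (long), 7.69 for Acadm (medium) and 3.47 for Acads (short). On the mean normalized count, which is not scaled to length, Acadm stood first at 30.1, beside 29.7 for Acadvl, 20.7 for Acadl and 7.88 for Acads, so that Acads was the lowest on both measures. Acadvl shares 42.9% of its exon bases with a gene on the other strand, described further down, and the other 3 share none. Electrons from these enzymes pass to the electron transfer flavoprotein and its oxidoreductase. Etfa, which encodes the α subunit, had a length-scaled level of 12.3, and Etfb, which encodes the β subunit of the same heterodimer, of 2.49. The subunits of this heterodimer stood apart in the table, and Etfb shares same-strand exon bases with Gm45233 and Mir7051. Etfdh, the oxidoreductase that hands the electrons to ubiquinone, had a length-scaled level of 3.95.

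The later mitochondrial steps held both extremes of the enzymes. Acaa2, the 3-ketoacyl-CoA thiolase that cleaves off acetyl-CoA, had a level of 72.4 and a length-scaled level of 47.8, the second highest of the 39. Hadha and Hadhb encode the α and β subunits of the trifunctional protein of the inner membrane, which carries out the later steps on long chains. Hadha had a level of 39.6 and a length-scaled level of 4.53, while Hadhb had a level of 2.48 and a length-scaled level of 0.376, the lowest of the 39. Of the 75-base words of Hadhb, 16.7% also occur in genes elsewhere, mostly in Gm13910, and a read from such a word cannot be assigned to either gene. Hadh, the dehydrogenase for shorter chains, had a length-scaled level of 4.52. Decr1 and Eci1 deal with the double bonds of unsaturated fatty acids, the first as a reductase and the second as an isomerase. Their length-scaled levels were 7.39 and 4.15, on either side of the members' median.

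All 6 peroxisomal genes had a level of at least 10. The thiolases Acaa1b and Acaa1a had length-scaled levels of 24.7 and 16.5, the highest of the group. Hsd17b4, the D-bifunctional protein, was at 8.69 on that scale and Ehhadh, the L-bifunctional protein, at 7.83. Eci2, an isomerase for unsaturated chains found in peroxisomes and mitochondria, had a length-scaled level of 4.11 and Pex11a, a membrane protein of peroxisome division, of 4.03. The group's median of 8.26 stood above the median of 4.53 for all members. Acat1, the acetoacetyl-CoA thiolase at the entry to ketone body synthesis, had a length-scaled level of 9.15. Bdh1, which converts acetoacetate and β-hydroxybutyrate into each other, had one of 5.03.

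The acyl-CoA thioesterases, which release free fatty acids from coenzyme A, were lower as a group, with a median length-scaled level of 1.35. Acot12, a cytosolic acetyl-CoA hydrolase, was the highest at 6.15. The clustered genes Acot4, Acot3, Acot1 and Acot2 followed at 2.92, 1.35, 1.08 and 0.676 on the same scale. Acot2 encodes the mitochondrial member of this cluster, Acot1 a cytosolic one and Acot3 and Acot4 peroxisomal ones. Both Acot3 and Acot4 share same-strand exon bases with Gm49366, which leaves their levels uncertain. The ω-hydroxylases of the Cyp4a family, microsomal cytochromes P450 that include well-known PPAR alpha targets, spread more widely. Cyp4a14 had a length-scaled level of 18.9, Cyp4a10 of 14.1 and Cyp4a12a of 8.93. Cyp4a32 and Cyp4a31 were lower, at 2.26 and 0.653. The remaining targets were low too. Vnn1, a pantetheinase anchored at the cell surface, had a length-scaled level of 2.11, and Pdk4, the kinase that shuts off pyruvate dehydrogenase, had one of 0.381.

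**Figure D2:**
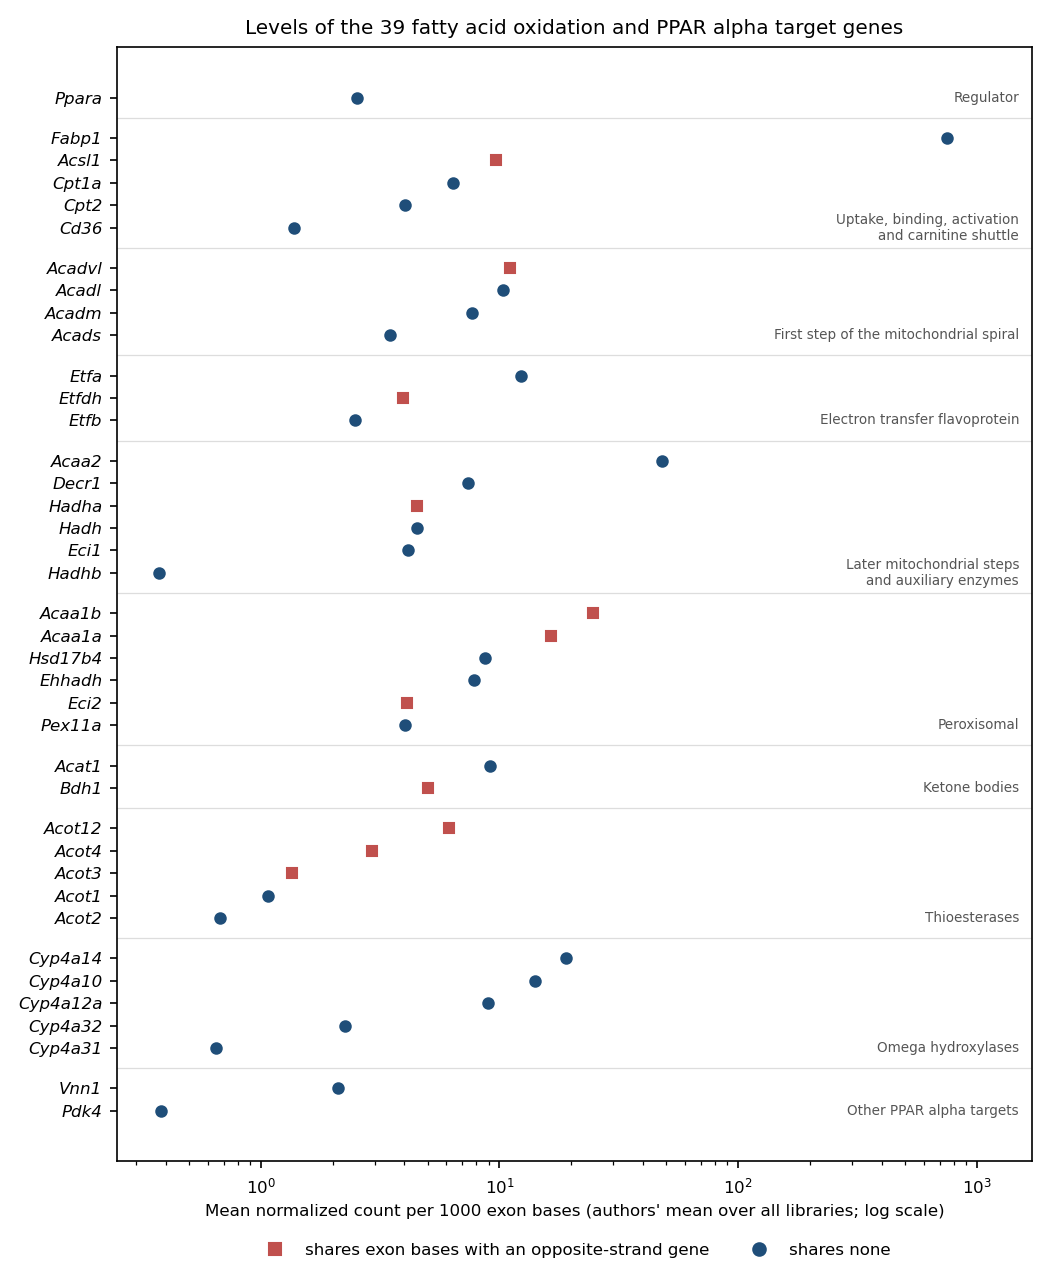
Mean normalized count per 1000 exon bases (horizontal axis, log scale; the authors' mean over all libraries, so no error bars) for each of the 39 genes, grouped by role and sorted within a role. Red squares are the 11 genes that share exon bases with a gene of the opposite strand and blue circles the other 28. Fabp1 stands alone at 745, most genes lie between 1 and 30, and Hadhb and Pdk4 are lowest at 0.376 and 0.381.

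Several members belong to families of similar genes on the same chromosome. The 5 Cyp4a genes lie at chr4:115299046-115621602, a stretch of 323 kb, and Acot1 to Acot4 lie at chr12:83987861-84060402, a stretch of 72.5 kb. Acaa1a and Acaa1b lie within the 202 kb of chr9:119148023-119350299. Translated from their principal coding sequences, Cyp4a10 and Cyp4a32 are 96.3% identical, Acaa1a and Acaa1b 95.8%, Cyp4a10 and Cyp4a31 94.5%, and Cyp4a31 and Cyp4a32 94.1%. Cyp4a14 is the most distant of its family, at 69.7 to 71.3% identity with the other 4. Acot1 and Acot2 are 84.1% identical, and Acot2 and Acot4, the least alike of their cluster, 59.3%.

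The reads were 75 bases long, so each gene was cut into its distinct 75-base words and these were looked up in all other genes. Of the words of Cyp4a12a, 40.8% occur elsewhere, mainly in Cyp4a12b. The share was 28% for Cyp4a32, 24.4% for Acaa1b, 21.2% for Acot2, 18.4% for Cyp4a10, 15% for Acot1, 12.8% for Cyp4a31 and 9.50% for Acaa1a. How the counting treated reads with several matches is not given in the sources used here, so the levels of these genes are uncertain. Cyp4a14, the highest of its family, shares no such word with another gene. Over the list, 12 of 39 members share at least 1% of their words, 8 share at least 10%, and the median share is 0.

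The exons of 11 members, 28.2%, overlap exons of a gene on the opposite strand, a share below the 33.2% of all rows and the 31.9% of protein-coding rows. These 11 members pair with 10 genes, all of which have a row of their own. The partner's length-scaled level was the higher in 8 of 11 pairs, 72.7%, against 68.1% of 4323 other protein-coding rows with such a partner in the table. Among rows with a level of at least 10, the partner's length-scaled level was the higher in 7 of 10 pairs, against 46.6% of 1756 other protein-coding rows. Where one of these other rows had several partners, the highest was taken, and no member had more than 1. On the mean normalized count, unscaled, the partner was the higher in 7 of the 11 pairs and the lower in 4. The median ratio of partner to member was 17.1 on the length-scaled measure, against 4.84 for the other coding rows. These other rows were not limited to a level of at least 10, which the member reached in 10 of the 11 pairs. Acot3 and Acot4 have the same partner, which enters both of their pairs.

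The largest partner was Dvl2, a cytoplasmic protein of Wnt signalling, which lies at chr11:70000595-70012301 on the plus strand, tail to tail with Acadvl at chr11:70010183-70015411 on the minus strand. Dvl2 had a level of 7900, rank 14 of all rows, and a length-scaled level of 1254, against 29.7 and 11.1 for Acadvl. The shared stretch covers 1151 exon bases, and 860 of these are coding bases of the principal Acadvl transcript. The longest coding exon piece that lies wholly within the overlap is printed here because a read from it fits Acadvl on one strand and Dvl2 on the other. It has 138 bases, chr11:70010299-70010436 of GRCm38, and is given 5′ to 3′ on the Acadvl strand in lower case throughout.
Acadvl: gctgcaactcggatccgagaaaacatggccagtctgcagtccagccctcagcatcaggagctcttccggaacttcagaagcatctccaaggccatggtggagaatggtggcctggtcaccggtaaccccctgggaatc

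Eci2 lies at chr13:34977748-35027096 on the minus strand, and its partner Gm16984, annotated as antisense, at chr13:34963982-34990452 on the plus strand. Gm16984 had a level of 1121, rank 105, and a length-scaled level of 1102, against 22.7 and 4.11 for Eci2. The pair shares 189 exon bases, all of them coding bases of Eci2 and 18.6% of the exon bases of Gm16984. The ratio of 268 on the length-scaled measure was the widest of the 11 pairs. The shared bases lie at chr13:34990181-34990369 and read as follows on the Eci2 strand.
Eci2: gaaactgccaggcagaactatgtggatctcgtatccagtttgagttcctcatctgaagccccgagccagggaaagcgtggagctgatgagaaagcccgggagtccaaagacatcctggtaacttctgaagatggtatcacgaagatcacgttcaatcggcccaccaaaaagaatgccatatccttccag

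Acaa1b shares 224 bases, none of them coding, with Dlec1 at chr9:119102478-119148246. Dlec1 had a level of 4111, rank 32, and a length-scaled level 24.9 times that of Acaa1b. Acot3 and Acot4 share 312 and 615 bases with the antisense transcript 4732463B04Rik, of which 312 and 603 are coding bases of the thioesterases. This transcript had a level of 590, rank 206, and a length-scaled level of 201, which was 149 times that of Acot3 and 69 times that of Acot4. In these 3 pairs the partner stood above its member by 24.9 times or more on the length-scaled measure.

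The other pairs were closer or ran the other way. Gm45244, opposite Acsl1, is a transcript of 2200 bases that the annotation lists as awaiting experimental support. It had a length-scaled level of 165, 17.1 times that of Acsl1, and overlaps none of the principal Acsl1 transcript. Opposite Acot12, the transcript 4833422C13Rik was 3.32 times as high on the length-scaled measure, and opposite Bdh1, Gm15743 was 1.82 times as high. The direction of this last pair turned on the unscaled mean, at 17.4 for Gm15743 and 19.5 for Bdh1. Acaa1a and its partner Myd88, an adaptor of Toll-like receptors, had length-scaled levels of 16.5 and 14.1. On the unscaled mean they stood further apart, at 72.8 and 36.3. Garem2 opposite Hadha and 4930579G24Rik opposite Etfdh were lower than the members, at 0.223 and 0.123 on the length-scaled measure. No spread between libraries stands behind any of these ratios, and whether reads of a member were counted for its partner was not tested.

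**Figure D3:**
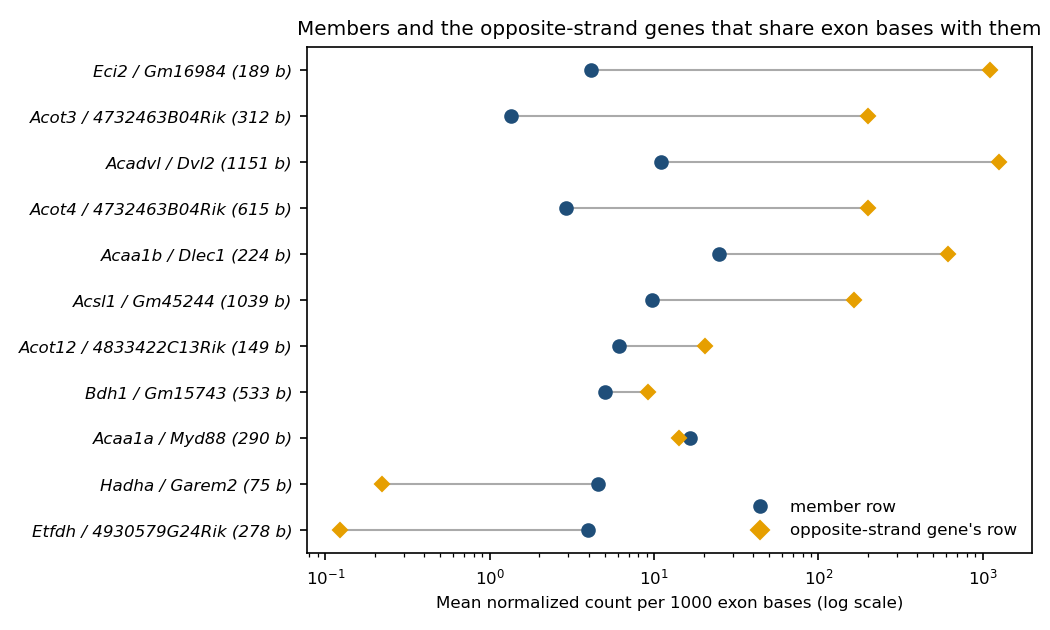
Mean normalized count per 1000 exon bases (horizontal axis, log scale) of each member (blue circle) and of the opposite-strand gene that shares exon bases with it (orange diamond), with the number of shared bases in parentheses. The partner lies to the right in 8 of 11 pairs, by 268 times for Eci2 and 113 times for Acadvl, and to the left for Acaa1a, Hadha and Etfdh.

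**Figure D4:**
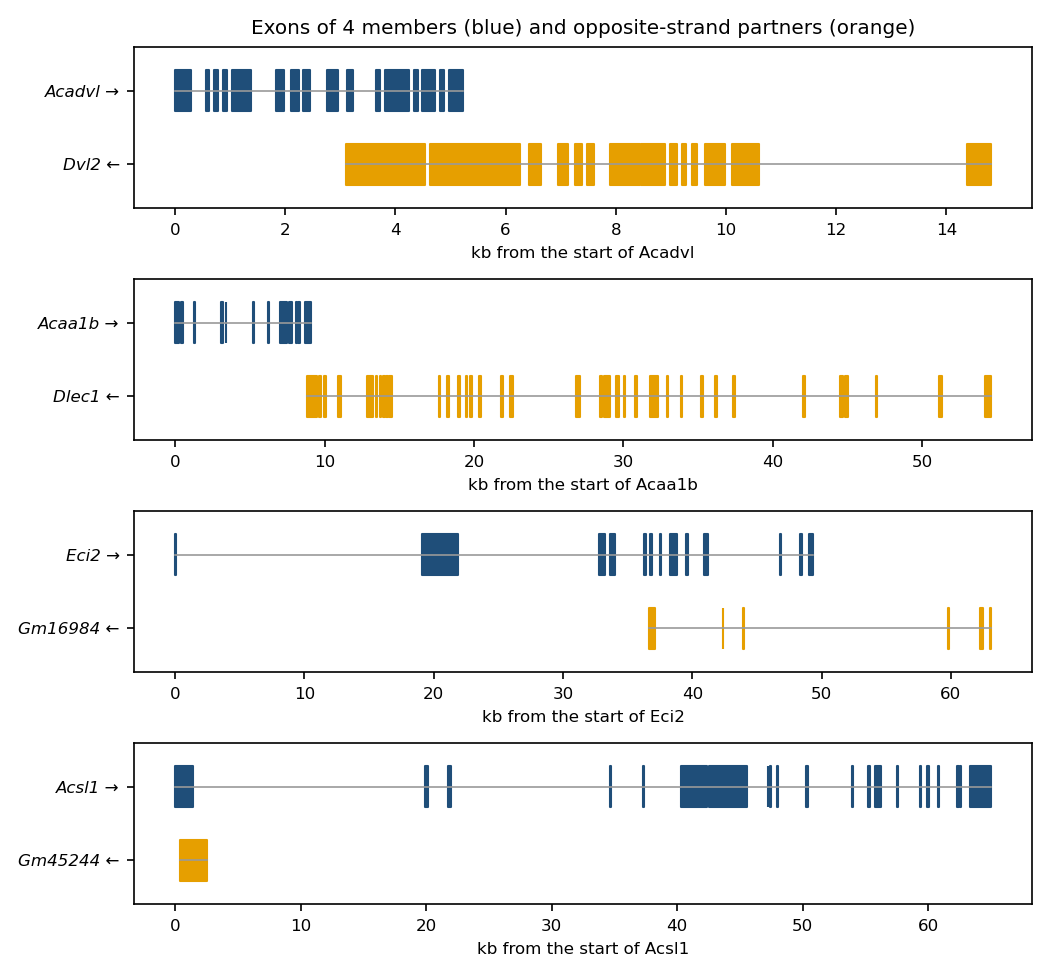
Merged exons (boxes) of Acadvl, Acaa1b, Eci2 and Acsl1 (blue) and of their opposite-strand partners (orange), drawn to scale in kb from the start of each member, with arrows giving the direction of transcription and thin lines the span of each gene. Exons overlap over 1151 bases in the first pair, 224 in the second, 189 in the third and 1039 in the last.

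The members with an opposite-strand overlap did not stand lower than those without. Their median length-scaled level was 5.03, against 4.33 for the 28 members without one. The ranges overlap widely, and among all protein-coding rows the corresponding medians were 1.22 and 0.369.

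PPAR alpha and RXR are known to bind direct repeats of AGGTCA with 1 base between the copies. RefSeq promoter windows of GRCm38.p6, from 250 bases before to 50 bases after a gene's start, were matched by symbol to 30 of the 39 members. Acaa2, Decr1, Hsd17b4, Acat1, Cyp4a10, Cyp4a12a, Cyp4a14, Cyp4a31 and Vnn1 were not searched. The repeat was searched on both strands with at most 1 mismatch in its 12 fixed bases, and no other motif was searched. It was found in Fabp1 and Acot12, 2 of 30 members or 6.67%, against 174 of 27025 genes or 0.644%. The 2 windows are printed because they hold these matches, 5′ to 3′ on the gene's strand, with the match in capitals. In both, the match reads on the opposite strand of the gene. It lies 67 to 55 bases before the start of Fabp1 (chr6:71199629-71199928) and 110 to 98 bases before that of Acot12 (chr13:91741271-91741570).
Fabp1: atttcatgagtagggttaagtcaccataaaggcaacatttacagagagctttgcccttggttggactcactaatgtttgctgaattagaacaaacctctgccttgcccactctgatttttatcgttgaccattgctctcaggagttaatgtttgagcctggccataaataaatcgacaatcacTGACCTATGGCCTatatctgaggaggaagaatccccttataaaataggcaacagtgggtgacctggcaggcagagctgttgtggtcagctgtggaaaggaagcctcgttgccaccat
Acot12: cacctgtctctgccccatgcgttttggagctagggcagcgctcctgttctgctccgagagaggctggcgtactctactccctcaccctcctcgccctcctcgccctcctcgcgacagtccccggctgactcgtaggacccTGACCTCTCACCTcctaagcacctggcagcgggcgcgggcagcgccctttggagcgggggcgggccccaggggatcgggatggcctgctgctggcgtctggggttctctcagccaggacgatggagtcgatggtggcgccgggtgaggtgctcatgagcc

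Fabp1 and Acot12 were the genes with a match, while the other 28 members with a window had none. Cpt1a, Ehhadh and Pex11a were among these. With up to 2 mismatches the count rose to 5 of 30, or 16.7%, against 4.40% of all genes, and Acot4, Cd36 and Etfa were added. Without a mismatch no member held the repeat, and 13 genes, 0.0481%, did. The members' windows had a median GC content of 57.3%, against 52.7% for all windows. A match describes the letters of these windows and is neither a binding site nor a cause of a level, and a window without one says nothing of the receptor.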

How the data were processed

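Total liver RNA was sequenced as strand-specific poly(A) libraries with 75-base single-end reads. Per the paper's methods, the authors mapped reads with HISAT2 (2.1.0.13 in the submitters' processing notes) to GRCm38, counted genes with HTSeq and ran DESeq2. The deposited table gives per gene, in each of 6 comparisons, a mean and test results. The mean, used here as a signal, is the authors' mean normalized count. It was taken to cover all 32 labelled libraries because it is identical in the 6 comparisons, and the table does not name the libraries behind it. The paper gives another number of samples for one RNA-seq display than the labels do per group. The other columns hold the authors' own fold changes, errors, test statistics and p-values and were not used, so that no test between groups was run and no genotype effect is given. No values of single libraries were analysed, and their depth is unknown.

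Exon lengths, overlaps and coding parts came from the GENCODE annotation of GRCm38, promoters from RefSeq (GRCm38.p6). Identities were computed from translated coding sequences of principal transcripts with Biopython 1.88, the rest with Python 3.11.15, numpy 2.4.6 and pandas 2.3.3, tested on simulated data. Of 21880 rows, 21833 were found in the annotation. Each of the 39 genes was named, with its opposite-strand partner. Of the 58 other pathway genes, those named were chosen after their values were seen, and the partner with the highest mean was used. The members and lists were chosen with earlier results of these data known.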

Additional observations from a re-analysis of the deposited data

How the results depend on the processing

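The median level of the members, 21.6 as a mean normalized count, was 4.53 per 1000 exon bases, 21.1 without the members at 90% protein identity or more to another member, and 16.7 over members with no opposite-strand overlap. Members at or above a level of 10 numbered 25, against 39 at a minimum of 1 and 10 at a minimum of 30. Members with an opposite-strand overlap numbered 11, also with a minimum of 75 shared bases, and 5 when only protein-coding partners were counted. The medians of members with and without an overlap, 29.7 and 16.7 as mean normalized counts, kept these values at 75 bases. The repeat was found in 2 members with at most 1 mismatch, in 0 with none and in 5 with at most 2. No paired analysis was possible because the values used are means over all libraries and no test was run. Leaving out each replicate in turn could not be run for the same reason. The levels mix all genotypes and ages, have no error, and limit statements to the table's overall pattern. Depth per library is unknown, so no counting interval was given.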

Other observations

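Other genes of fatty acid oxidation, ketogenesis and PPAR alpha response outside the 39 were all found in the table, 58 of 58, with a median length-scaled level of 3.64. A level of at least 10 was reached by 33 of them, 56.9%. Slc27a5, a bile acid-CoA ligase and fatty acid transporter, had a length-scaled level of 52.1, and Scp2, a peroxisomal thiolase and sterol carrier, had one of 50.8. On that scale only Fabp1 among the 39 was above these. On the same scale Cpt1b, the muscle form of the carnitine palmitoyltransferase, was at 0.0291 and Cpt1c, its brain form, at 0.0613. Oxct1, an enzyme of ketone body use, was at 0.136. Cpt1c shares 366 exon bases with the opposite-strand gene 6530437J22Rik, at 1.72 on that scale, and Oxct1 shares 467 with BC037032, at 0.391. Like every level here, those of these genes cannot be read as the abundance of their own mRNA. Whether their reads were counted for a partner was not tested.

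Among these 58 genes, 14 share exon bases with an opposite-strand gene in the table, and the partner was the higher per 1000 exon bases in 12. The count was the same with the partner of longest overlap, and 1 gene had more than 1 partner. Among 4323 protein-coding rows outside the 39 with such a partner this held for 68.1%. Ackr4, a chemokine scavenger receptor opposite Acad11, had a length-scaled level of 522 against 3.16 for Acad11. Gm15441 opposite Txnip had one of 703 against 12.3, and Zdhhc6 opposite Acsl5 had one of 212 against 17.3. Paox opposite Echs1 was the lower of its pair, at 0.682 against 7.93 on that scale.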
